A study of Homo sapiens with 30 samples.

Results

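The 211 genes described here are zinc finger genes that lie on autosomes other than chromosome 19 and were expressed in HEK293FT cells. Members were chosen as rows of the count tables with a symbol made of ZNF, a number and at most 1 further letter, placed on a single autosome other than chromosome 19, whose counts summed over 8 RNA libraries were at least 200. Of 532 such symbols in the 27630 rows, 261 lay on these autosomes, and 211 of the 261 passed the minimum. The sum over all libraries chose the members, so their presence is not a finding, while differences between groups were not used to choose them. ZNF438 with 204 counts and ZNF334 with 214 lay just inside the minimum, and ZNF396 with 196 and ZNF485 with 182 lay just outside. All 211 entered the test between groups. Without their nuclear counts 16 members, ZNF750 and ZNF891 among them, would have fallen under the minimum, and 6 of the 16 were called higher in the nucleus and 0 lower, which the minimum favours.

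HEK293FT is a transformed human embryonic kidney line. Per the labels, all cells were asynchronous and had been transfected with a fusion of lamin B1 and APEX2, a peroxidase that tags molecules close to it with biotin, and no untransfected group was used here. The 4 groups of 2 libraries each were a nuclear fraction, a cytosolic fraction, RNA recovered near the nuclear lamina without fixation (native lamina) and the same after fixation with PFA (PFA lamina). The comparisons ask how the RNA of these genes was divided between nucleus and cytosol, and how RNA near the lamina compared with each fraction. The fusion was expressed by transfection, so the amount of it per cell was not controlled, and the labels do not say whether the 2 libraries of a group came from separate cultures, so p-values measure the spread between these libraries, which may be technical.

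Most proteins encoded by ZNF genes carry arrays of C2H2 zinc fingers, small zinc-bound folds that read DNA sequence. Many also carry a KRAB domain, which recruits the scaffold protein TRIM28 and, through it, histone methyltransferases, HP1 proteins and histone deacetylases that silence chromatin, in large part at transposable elements. Others carry a SCAN domain, through which zinc finger proteins pair, or use their fingers to bind RNA or to join chromatin complexes. The genes themselves often stand in clusters that arose by tandem duplication, the largest of them on chromosome 19, and some clusters lie in chromatin held at the nuclear lamina.

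Library totals ran from 2321291 to 8557777 counts, the smallest being replicate 2 of PFA lamina, and members held 0.579% to 1.01% of the counts of a library. The fractions carried the RNAs their names call for: MALAT1 and NEAT1, 2 nuclear RNAs, together reached 12819 and 21616 CPM in the nucleus and 951 and 1276 in the cytosol (CPM are counts scaled to a common library total, here with the trimmed mean of M values, TMM). In native lamina their sum was 6206 and 13375, and in PFA lamina 702 and 3824. The 2 PFA libraries were also the least alike, with a Pearson correlation of log2 CPM of 0.911 across genes against 0.960 to 0.968 in the other groups. The cytosolic mRNAs GAPDH, ACTB and EEF1A1 had nuclear over cytosolic log2 fold changes of -2.81, -2.49 and -1.98. Against the nucleus, edgeR called ACTB higher in native and PFA lamina, at 1.48 and 1.39. GAPDH and EEF1A1 were not called there, at 0.54 and 0.41 in native and 0.68 and 0.34 in PFA lamina. Each of these mRNAs had a lower mean CPM in both preparations than in the cytosol. The part of cytosolic RNA in the lamina results was not tested. Of the markers listed for the HEK293 line, NEFL and NEFM were present. PAX2 had 144 counts over the 8 libraries, with 0 in cytosolic replicate 2. PAX8 had 7 counts and was at 0 in cytosolic and native lamina libraries. HBG1 and HBG2, globin genes that mark K562, the erythroid line of the series, were at 0 in all 8. GATA1 and HBZ, also listed for K562, had 38 and 10 counts over the 8. Of the markers of HCT116, the colon line of the series, CDX2 was present at 9.34 to 48.4 CPM, VIL1 at 0 to 12.7 and EPCAM at 1.20 to 2.96, KRT20 and CEACAM5 had 7 and 1 counts in all, and the part of these in the results was not tested.

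Between the fractions, more members were higher in the nucleus than in the cytosol. By edgeR's quasi-likelihood test at an adjusted p under 0.05, 77 of 211 members (36.5%) were higher in the nuclear fraction and 23 (10.9%) were lower, where 26.1% of the 16504 genes tested were higher and 21.2% were lower. ZNF genes of chromosome 19 were higher in 82 of 183 cases and lower in 11. The median member had a log2 fold change of 0.40, above the 0.13 of all genes tested, and chromosome 19 ZNF genes had a median of 0.87. Scaling by upper quartiles moved the median of all genes by 0.27 and gave 92 members higher and 16 lower. In bulk samples such as these, a shift in the number of molecules and a shift in their share of the library cannot be told apart.

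**Figure D1:**
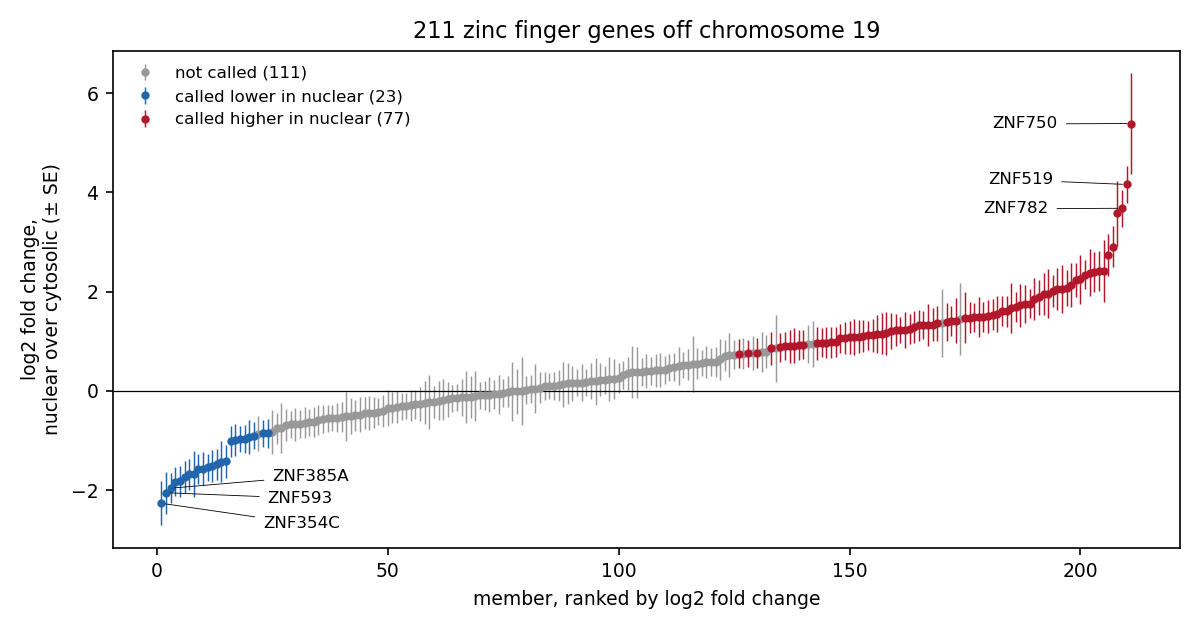
Log2 fold change of each of the 211 members, nuclear over cytosolic, in rank order, with standard errors derived from the F statistic of the test. Red points are the 77 members called higher, blue the 23 called lower and grey the 111 not called; ZNF750 stands at the upper end at 5.39 and ZNF354C at the lower end at -2.27.

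ZNF519 and ZNF782 had the largest nuclear over cytosolic differences after ZNF750, a gene that reached the minimum through its nuclear counts (211 of 301). ZNF519 was at 53.2 and 53.9 CPM in the nucleus, 3.34 and 2.54 in the cytosol, 9.56 and 13.7 in native lamina and 6.47 and 6.25 in PFA lamina. The nuclear libraries stood far above the other 6, a log2 fold change over cytosol of 4.16 ± 0.37 (SE, n = 2 per group, edgeR adjusted p = 0.000105). ZNF782 followed the same order, with 40.8 and 33.3 CPM in the nucleus, 2.81 and 2.96 in the cytosol, 11.02 and 8.99 in native lamina and 8.13 and 9.56 in PFA lamina. Its log2 fold change was 3.68 ± 0.38 (edgeR adjusted p = 0.000347). ZNF750, a regulator of keratinocyte differentiation, was fitted at 5.39 ± 1.01 (edgeR adjusted p = 0.00155), but its cytosolic counts were 5 and 0, so the size of this value depends on how low counts are treated, and it ranged from 4.63 to 9.67 when either cytosolic library was left out. The gene lies within the span of TBCD, and RNA of TBCD read across its exons cannot be told apart from its own, since strand was ignored in counting.

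Behind these came ZNF785 at 3.57 ± 0.66, ZNF789 at 2.91 and ZNF594 at 2.74 on the log2 scale. ZNF594 was less even between replicates, with 50.9 and 30.8 CPM in the nucleus against 8.42 and 3.38 in the cytosol, and the groups did not overlap. The transcript ZNF767P, 1 of 5 members whose symbol marks a pseudogene, was at 42.3 and 28.3 CPM in the nucleus and 7.09 and 8.04 in the cytosol, a log2 fold change of 2.23 ± 0.34 (edgeR adjusted p = 0.000778). The levels of ZNF721 were 101 and 86.1 CPM in nuclear and 15.4 and 21.6 in cytosolic libraries. The remaining nuclear-high members had log2 fold changes down to 0.75, at ZNF7.

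Members that were higher in the cytosol were fewer and included several of the most abundant. ZNF354C had 3.42 and 3.44 CPM in the nucleus and 16.0 and 17.1 in the cytosol, a log2 fold change of -2.27 ± 0.44 (edgeR adjusted p = 0.00191). ZNF593, whose protein takes part in ribosome biogenesis, was at 4.51 and 6.53 CPM in the nucleus and 25.8 and 19.9 in the cytosol, at -2.05 ± 0.42 (edgeR adjusted p = 0.00238). ZNF385A, an RNA-binding protein, showed 8.40 and 11 CPM against 36.5 and 39.1, at -1.96 ± 0.30 (edgeR adjusted p = 0.000801). In each of these 3 the nuclear and cytosolic libraries were well apart.

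Per kilobase of exon, the 8 members with the highest mean level over the libraries were ZNF768, ZNF207, ZNF664, ZNF703, ZNF503, ZNF598, ZNF24 and ZNF593. ZNF768 led with 93.8 CPM per kb, against a median of 6.09 over members and 0.933 at the lowest, ZNF25. Of the 8, all but ZNF207, the spindle-assembly factor BuGZ, and ZNF24 were lower in the nucleus than in the cytosol. ZNF768 itself was at 60.9 and 89.0 CPM in nuclear, 209 and 240 in cytosolic, 209 and 253 in native lamina and 343 and 335 in PFA lamina libraries. ZNF703 and ZNF503, 2 related co-repressors, had nuclear over cytosolic log2 fold changes of -1.83 ± 0.29 and -1.54 ± 0.27. ZNF664 was at -1.57 ± 0.33, and 6.31% of its exon bases are shared with RFLNA. ZNF207 was nearly even, with 155 and 188 CPM in the nucleus and 145 and 160 in the cytosol. Over the 211 members, the level per kilobase and the nuclear over cytosolic log2 fold change had a Spearman correlation of -0.37, a description across genes in which both values come from the same counts.

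**Figure D2:**
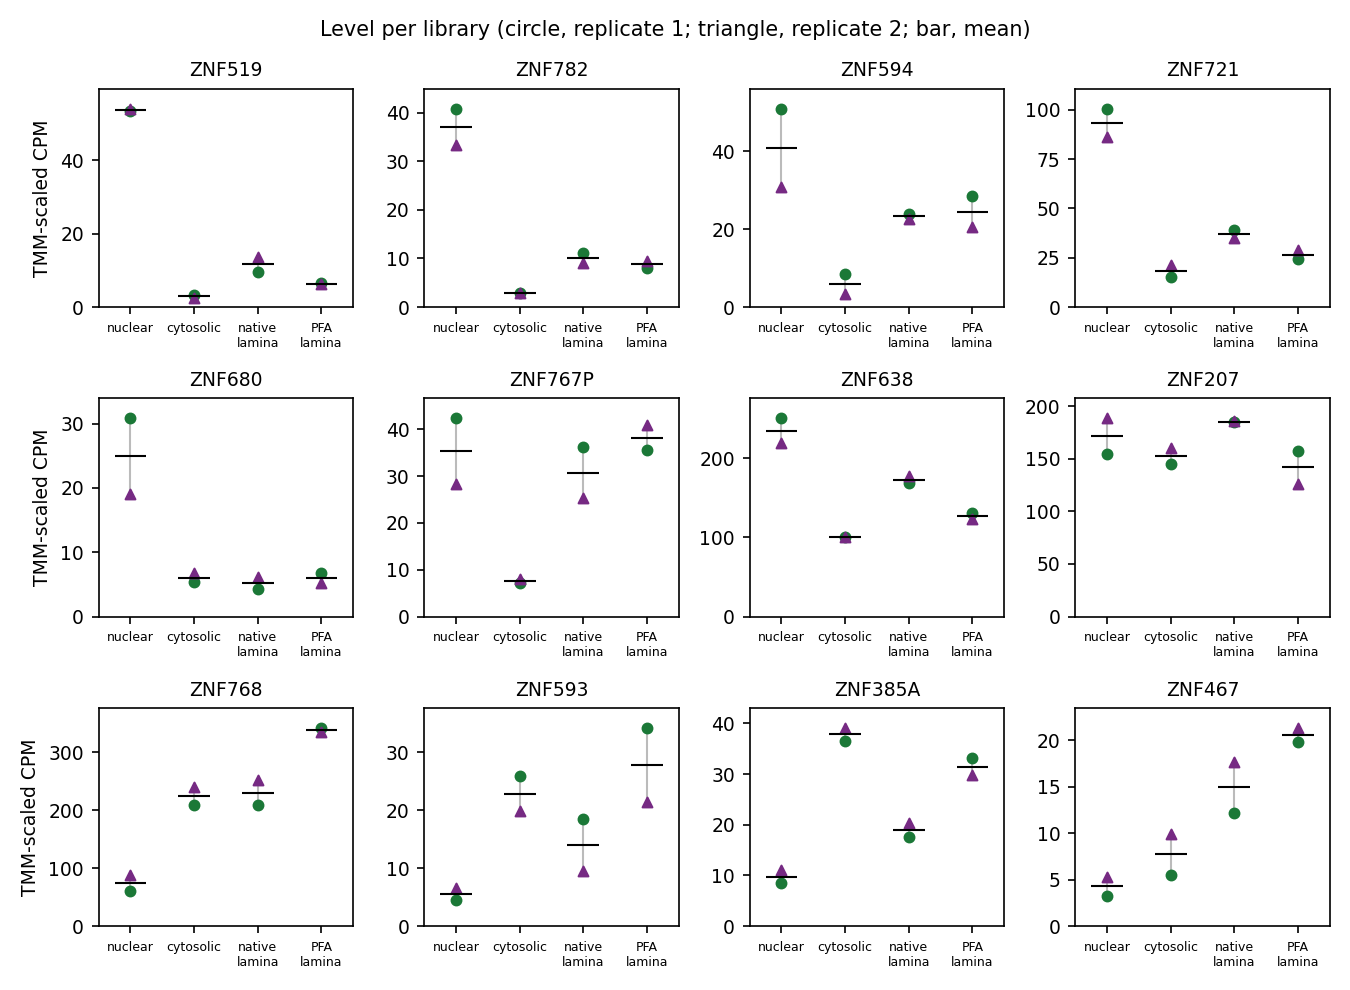
TMM-scaled CPM of 12 members in each of the 8 libraries, 1 panel per gene, each axis starting at 0. ZNF519, ZNF782, ZNF721 and ZNF680 are highest in the nucleus, ZNF593 and ZNF385A are lowest there, ZNF207 differs little, and ZNF467 and ZNF768 are highest in PFA lamina.

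Leaving out 1 library changed how many members passed the test between the fractions: 43 were higher and 14 lower without nuclear replicate 1, 46 and 14 without cytosolic replicate 1, and 46 were higher without cytosolic replicate 2. Whichever of these 4 libraries was left out, 31 nuclear-high members, ZNF519, ZNF782, ZNF785, ZNF594, ZNF721, ZNF767P, ZNF680 and ZNF10 among them, and 13 cytosol-high members, among them ZNF593, ZNF385A, ZNF354C, ZNF768, ZNF703 and ZNF777, remained called. Of the 211, 54 share part of their span with another symbol, and among the 157 that do not, 61 were higher in the nucleus and 14 lower. Exon bases are shared, and reads in them counted for both genes, in 11.7% of ZNF500 (with C16orf71), 10.1% of ZNF789 (with ZNF394), 9.93% of ZNF503 (with its antisense gene), 7.64% of ZNF718 (with ZNF595) and 4.52% of ZNF397 (with ZSCAN30). Larger shares were found in other called members, among them ZNF32 (32.5%, with its antisense genes), ZNF511 (30.1%, with TUBGCP2) and ZNF695 (19.5%, with ZNF670-ZNF695). ZNF511 and ZNF695 were among the members that remained called.

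Of 10 members whose proteins work on RNA or the ribosome, 3 were higher in the nucleus and 3 were higher in the cytosol, 30.0% each, near the 26.1% and 21.2% of all genes, with a list median of -0.14 against 0.13. The nuclear-high ones were ZNF638, an RNA-binding protein that also silences unintegrated viral DNA, ZNF326, a subunit of the DBIRD complex that couples transcription elongation with splicing, and ZNF346, a double-stranded RNA binder, whose call was lost without any 1 of the 4 nuclear and cytosolic libraries. ZNF638 was at 250 and 219 CPM in the nucleus, 101 and 100 in the cytosol, 168 and 177 in native lamina and 131 and 123 in PFA lamina, with a nuclear over cytosolic log2 fold change of 1.23 ± 0.27 (edgeR adjusted p = 0.00305). ZNF326 had 116 and 124 CPM in the nucleus and 57.1 and 44.0 in the cytosol. The cytosol-high ones were ZNF593, ZNF385A and ZNF598, the ubiquitin ligase that marks collided ribosomes. ZNF598 stood at 47.9 and 61.7 CPM in the nucleus and 113 and 101 in the cytosol, a log2 fold change of -0.97 ± 0.28 (edgeR adjusted p = 0.0137).

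Among 19 SCAN-domain genes, 18 were members and ZNF396 fell under the minimum. ZNF500, ZNF75A, ZNF287 and ZNF397 were higher in the nucleus and ZNF213 was lower, with a list median of 0.47. The shares were 22.2% and 5.56%, below the 26.1% and 21.2% of all genes, and without nuclear replicate 1 or cytosolic replicate 1 the counts were 1 and 0, without nuclear replicate 2 they were 3 and 0 and without cytosolic replicate 2 they were 2 and 1. ZNF500 was at 50.4 and 49.996 CPM in the nucleus and 15.8 and 11.2 in the cytosol, at 1.88 ± 0.35 (edgeR adjusted p = 0.00153). ZNF213 went the other way, with 12 and 10.5 CPM against 25.9 and 19.5. Of 12 members known as co-factors of chromatin complexes, ZNF609 alone passed the test between fractions (8.33%, against 21.2% of all genes lower), with 89.0 and 82.1 CPM in the nucleus and 146 and 163 in the cytosol, and the list median was -0.38. Its call was lost without any 1 of those 4 libraries, with total counts, with upper quartiles and with at least 10 counts in every library. Of 7 promoter-binding members, ZNF76, a relative of ZNF143, was higher in the nucleus at 0.97 ± 0.29 (edgeR adjusted p = 0.0166), and ZNF143 was not called. The call of ZNF76 was lost without any 1 of the 4 libraries. Of the pair ZNF451, a SUMO ligase, and ZNF131, ZNF451 was higher in the nucleus, at 139 and 174 CPM against 46.0 and 88.2, a call lost without nuclear replicate 2 or cytosolic replicate 1.

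**Figure D3:**
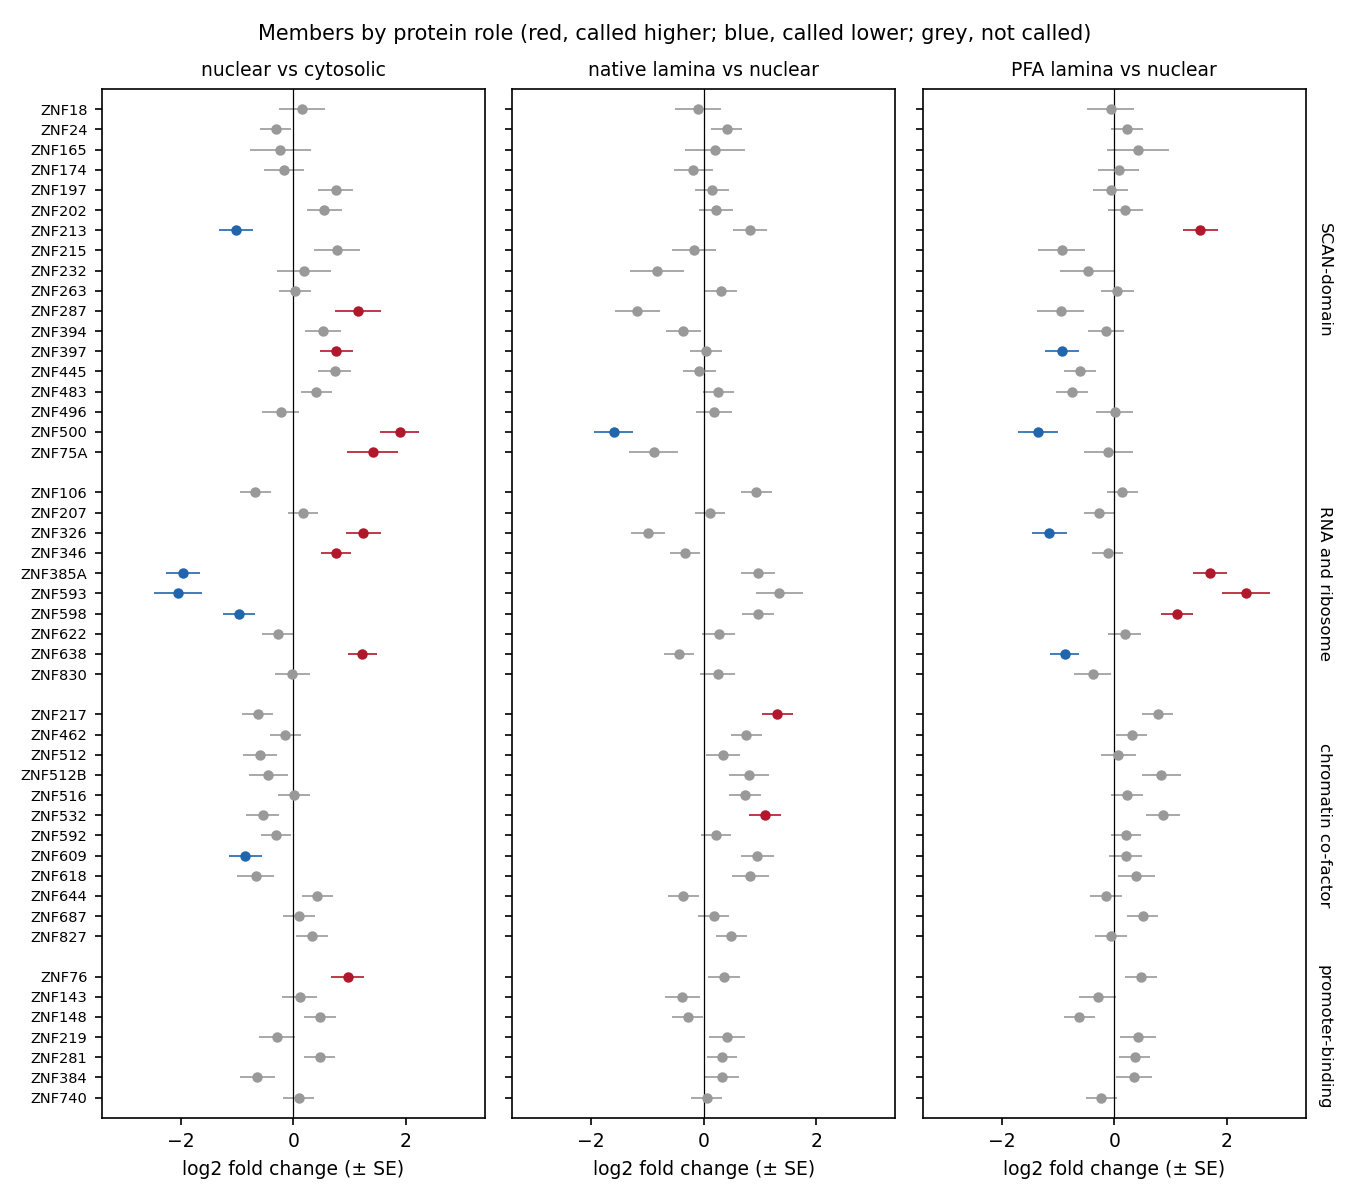
Log2 fold change with standard error of members grouped by protein role (SCAN-domain, RNA and ribosome, chromatin co-factor, promoter-binding) in 3 comparisons, nuclear over cytosolic, native lamina over nuclear and PFA lamina over nuclear. In the first, the RNA and ribosome group has 3 red and 3 blue points; in the second, ZNF217 and ZNF532 are the red points of the chromatin co-factor group.

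The partners that KRAB zinc finger proteins recruit were measured beside the members. Of 18 genes of this co-repressor pathway, none of them members, 8 were higher in the cytosol than in the nucleus and 1 was lower. Of all genes tested, 21.2% were higher in the cytosol and 26.1% were lower. The list median, nuclear over cytosolic, was -0.79, against 0.13 for all genes. Without nuclear replicate 1 the 8 fell to 4. TRIM28, the scaffold, was at 270 and 325 CPM in the nucleus and 753 and 710 in the cytosol, a log2 fold change of -1.30 ± 0.30 (edgeR adjusted p = 0.00433). CBX1 and CBX3, which encode HP1 proteins, were at -1.81 ± 0.37 and -1.55 ± 0.34, and CHD4, HDAC2, UHRF1 and SUMO2 were among the others that were lower in the nucleus. MPHOSPH8, a subunit of the HUSH silencing complex, was higher in the nucleus, with 58.5 and 52.2 CPM against 21.0 and 20.3. SETDB1, the methyltransferase TRIM28 recruits, was not called, at 69.6 and 79.7 against 73.8 and 71.9 CPM.

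Neighbouring members were compared along the chromosomes, in groups of at least 4 members with gaps under 1 Mb; this grouping was made after the values were seen. It gave 12 groups holding 78 members. Calls in them are to be set beside the 26.1% of all genes that were higher in the nucleus and the 21.2% that were lower. At the end of chromosome 12, all 5 members (ZNF605, ZNF140, ZNF891, ZNF10 and ZNF268, hg19 chr12:133498019-133783697) were higher in the nucleus, with log2 fold changes of 1.08 to 2.38. Of these 5, ZNF891 reached the minimum only with its nuclear counts, which favours a nuclear-high call. Without nuclear replicate 1, 2 of these 5 were called, and without cytosolic replicate 2, 3. On chromosome 7 (chr7:63774251-64866048), ZNF736, ZNF680, ZNF107, ZNF138 and ZNF273 were higher, and ZNF92 did not pass the test; without nuclear replicate 1 or cytosolic replicate 2, 3 of the 6 were called. At the end of chromosome 8 (chr8:145946294-146228285), 5 of 7 members were higher, but 1 or 2 without any 1 of the 4 libraries (ZNF34 alone without nuclear replicate 2), and 2 with total counts or DESeq2. Other groups held calls in both directions. Near ZNF768 on chromosome 16 (chr16:30389633-31928629), 3 of 13 members were higher and 3 lower, near the shares of all genes. On chromosome 7 (chr7:148766733-150095719), 4 of 12 were higher and ZNF777 was lower. Those on chromosome 16 became 3 and 1 without nuclear replicate 1, 2 and 3 without nuclear replicate 2 and 2 and 1 without either cytosolic library, and those on chromosome 7 became 1 and 1 without nuclear replicate 1 or cytosolic replicate 2. On chromosome 6 (chr6:26634611-28057340), 0 of 5 members were called at an adjusted p under 0.05 in either direction by edgeR, and 0 at an unadjusted p under 0.05 or by DESeq2.

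**Figure D4:**
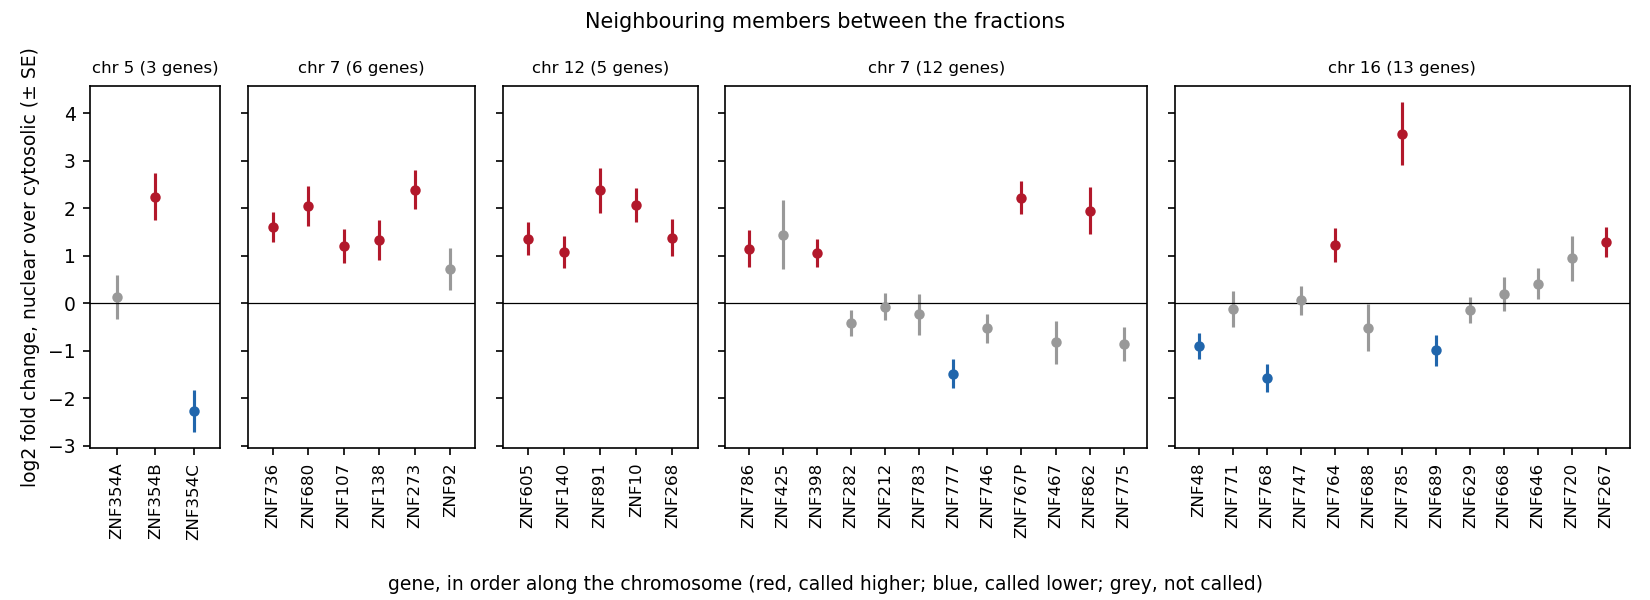
Nuclear over cytosolic log2 fold change with standard error for neighbouring members, in chromosomal order, for the chromosome 5 trio and 4 groups of neighbours. All 5 members at the end of chromosome 12 are red (higher in the nucleus), while ZNF354B and ZNF354C on chromosome 5 lie on opposite sides of 0. ZNF891, among the 5, reached the minimum only with its nuclear counts.

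The KRAB gene ZNF10, whose repressor domain is widely used in gene silencing tools, and ZNF891 stand head to head on chromosome 12. ZNF10 was at 31.1 and 33.0 CPM in the nucleus, 9.49 and 5.50 in the cytosol, 12.5 and 15.6 in native lamina and 12.4 and 17.3 in PFA lamina. ZNF891 was lower but had the same order of fractions, with 16.7 and 14.6 CPM in the nucleus, 3.74 and 2.11 in the cytosol, 5.09 and 7.07 in native lamina and 3.88 and 3.68 in PFA lamina. Their nuclear over cytosolic log2 fold changes were 2.07 ± 0.37 and 2.38 ± 0.47 (edgeR adjusted p = 0.00126 and 0.00206). ZNF891 reached the minimum only with its nuclear counts, which favours such a call. Promoter windows from RefSeq (GRCh38.p14, 250 bases before to 50 after the gene start) are printed for this pair because the windows of the 2 genes overlap: they (chr12:133130377-133130676, plus strand, and chr12:133130225-133130524, minus strand) have 148 bases in common, read on opposite strands. Capitals mark GC boxes (GGGCGG or its reverse complement) and CCAAT boxes (CCAAT or its reverse complement), here and in the sequences after these.
ZNF10: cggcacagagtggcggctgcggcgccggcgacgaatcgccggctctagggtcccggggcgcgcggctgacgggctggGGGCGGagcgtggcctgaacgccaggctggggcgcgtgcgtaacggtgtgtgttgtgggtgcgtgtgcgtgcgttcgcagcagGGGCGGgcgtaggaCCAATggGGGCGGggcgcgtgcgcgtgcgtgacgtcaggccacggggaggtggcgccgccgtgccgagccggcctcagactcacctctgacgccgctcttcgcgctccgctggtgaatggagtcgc
ZNF891: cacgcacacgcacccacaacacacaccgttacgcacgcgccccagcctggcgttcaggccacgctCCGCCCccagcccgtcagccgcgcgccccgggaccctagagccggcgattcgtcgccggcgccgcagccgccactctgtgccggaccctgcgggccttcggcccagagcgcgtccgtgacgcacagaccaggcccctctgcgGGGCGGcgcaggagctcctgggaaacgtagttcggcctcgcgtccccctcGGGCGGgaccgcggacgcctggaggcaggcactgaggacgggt

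The ZNF354 trio on chromosome 5, tandem KRAB genes, differed between neighbours. ZNF354A was at 10.4 and 10.5 CPM in the nucleus and 11.4 and 7.61 in the cytosol, and its groups overlapped. ZNF354B was at 19.3 and 10.1 CPM in the nucleus against 3.21 and 2.96 in the cytosol, a log2 fold change of 2.24 ± 0.49 (edgeR adjusted p = 0.00323). That call was lost without nuclear replicate 1. ZNF354C, given above, was the member most shifted to the cytosol. The difference between the 3 genes was itself not tested. Their promoter windows are shown because ZNF354B and ZNF354C, which are neighbours, were called in opposite directions. In the order ZNF354A, ZNF354B, ZNF354C, the windows span chr5:178730610-178730909, minus strand, chr5:178859703-178860002, plus strand, and chr5:179060123-179060422, plus strand. The longest identical run was 16 bases between ZNF354A and ZNF354B, against 8 between ZNF354A and ZNF354C and 7 between ZNF354B and ZNF354C, and the ZNF354C window held none of the motifs searched.
ZNF354A: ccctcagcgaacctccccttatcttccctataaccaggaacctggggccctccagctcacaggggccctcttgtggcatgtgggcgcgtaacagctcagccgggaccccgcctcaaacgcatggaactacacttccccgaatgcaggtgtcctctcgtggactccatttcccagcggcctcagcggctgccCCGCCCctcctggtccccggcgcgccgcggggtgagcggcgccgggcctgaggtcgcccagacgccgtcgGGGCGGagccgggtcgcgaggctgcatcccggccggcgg
ZNF354B: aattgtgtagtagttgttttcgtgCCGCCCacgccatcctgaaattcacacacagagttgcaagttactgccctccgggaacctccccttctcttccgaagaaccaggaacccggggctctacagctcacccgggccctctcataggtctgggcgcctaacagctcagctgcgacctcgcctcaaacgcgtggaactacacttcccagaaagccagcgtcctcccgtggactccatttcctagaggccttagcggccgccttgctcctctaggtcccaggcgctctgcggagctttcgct
ZNF354C: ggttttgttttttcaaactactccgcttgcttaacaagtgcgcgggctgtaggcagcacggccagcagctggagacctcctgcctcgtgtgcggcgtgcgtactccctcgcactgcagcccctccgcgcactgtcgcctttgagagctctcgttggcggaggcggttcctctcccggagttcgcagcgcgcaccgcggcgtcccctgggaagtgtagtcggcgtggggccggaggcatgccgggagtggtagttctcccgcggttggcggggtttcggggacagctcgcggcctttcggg

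Windows were matched by symbol for 171 of the 211 members, and their median GC content was 63.3%, against 58.7% over all 35116 promoters of the table. Searched on both strands, GGGCGG was in 64.3% of the members' windows against 45.0% of all promoters, CCAAT in 43.3% against 34.6%, and the TATA box TATAAA in 4.09% against 11.5%. The E-box CACGTG was in 6.43% against 7.26%. In 216 windows of chromosome 19 ZNF genes, GGGCGG was in 67.6%, CCAAT in 53.7%, TATAAA in 1.85% and CACGTG in 4.17%. Each of these lay further from all promoters than the members' value, so these motif differences are not particular to members. The median GC content of the 216 was 59.8%, nearer to all promoters. Neither these windows nor those of the table were limited to expressed genes, and the part of this in the differences was not tested. CCAAT was in 37 of the 63 matched members that were higher in the nucleus (58.7%) and in 5 of the 19 that were higher in the cytosol (26.3%), and the median GC content was 61.0% and 69.7% in these sets, with no test made of either difference. ZNF519, nuclear-high, and ZNF768, cytosol-high and the most abundant per kilobase, are shown as members on which the results turn (chr18:14132386-14132685 and chr16:30526517-30526816, both minus strand): the first has 2 CCAAT boxes and 1 GC box at 59.3% GC, the second 4 GC boxes at 81.7% GC. They do not stand for their sets: nuclear-high ZNF10 and ZNF891 have windows of 74.3% and 74.7% GC, and nuclear-high ZNF891 and ZNF354B hold no CCAAT box.
ZNF519: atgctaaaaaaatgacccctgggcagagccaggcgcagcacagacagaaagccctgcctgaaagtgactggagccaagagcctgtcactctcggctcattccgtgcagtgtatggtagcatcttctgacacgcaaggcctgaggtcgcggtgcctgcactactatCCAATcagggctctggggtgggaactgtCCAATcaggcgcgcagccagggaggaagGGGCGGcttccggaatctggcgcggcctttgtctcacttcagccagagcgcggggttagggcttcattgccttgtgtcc
ZNF768: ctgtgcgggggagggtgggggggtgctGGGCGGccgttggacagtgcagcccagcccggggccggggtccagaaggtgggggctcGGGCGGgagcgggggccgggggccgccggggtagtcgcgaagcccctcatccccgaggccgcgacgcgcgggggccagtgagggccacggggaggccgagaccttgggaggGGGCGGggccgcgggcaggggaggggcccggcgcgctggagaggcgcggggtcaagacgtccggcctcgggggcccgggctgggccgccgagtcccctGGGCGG

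Lamina-associated domains, stretches of chromatin held at the nuclear lamina, had been mapped in HCT116, a colon carcinoma line, in G1, S and G2, with 1 deposited consensus list per stage. In all 3 lists, 8 of 211 members (3.79%) lay wholly inside a domain, against 194 of the 16504 genes tested (1.18%). These were ZNF717, ZNF718, ZNF736, ZNF140, ZNF891, ZNF10, ZNF268 and ZNF521. Of the 8, all but ZNF521 (7 genes) were higher in the nucleus than in the cytosol. That held for 33.5% of the 194 genes and for 12 of the 22 chromosome 19 ZNF genes (54.5%). Without any 1 of the nuclear and cytosolic libraries, 5 or 6 of the 8 were called. Their median log2 fold change was 1.504, and 4 of them are the neighbours on chromosome 12, so they are not independent. ZNF891, among them, reached the minimum only with its nuclear counts, which favours a nuclear-high call. ZNF717 was at 51.2 and 39.7 CPM in the nucleus and 19.8 and 14.4 in the cytosol, and ZNF718 at 38.1 and 30.9 against 7.35 and 12.1. ZNF521, a partner of early B-cell factors, had 31.0 and 29.2 CPM against 28.6 and 25.2. In the lamina preparations, none of these 8 was higher than in the nucleus by edgeR's adjusted p or by an unadjusted p under 0.05. In PFA lamina 5 were lower than in the nuclear fraction, as were 25 of the 194 genes and 7.81% of all genes. A fit of the 4 compared libraries alone kept none of these 5 calls. The domains come from another cell line and from 1 list per stage, and with the G2 list alone 15 members lay inside, of which 9 were higher in the nucleus (60%) and 2 lower, against 31.2% higher of the 426 genes inside.

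Native lamina RNA was compared with the nuclear fraction, in which a member can be higher without being above the cytosol. There, 13 members were higher and 12 lower, 6.16% and 5.69% of members against 3.87% and 3.44% of all genes, and the median member was at -0.06 against -0.07 for all genes. ZNF467 was higher, with 12.2 and 17.7 CPM in native lamina and 3.27 and 5.33 in the nucleus, a log2 fold change of 1.79 ± 0.44 (edgeR adjusted p = 0.0324). ZNF768 and ZNF777 followed at 1.62 ± 0.30 and 1.58 ± 0.31 (edgeR adjusted p = 0.0134 and 0.0164). Both were also lower in the nucleus than in the cytosol, and neither was called higher in native lamina than in the cytosol. Of the chromatin co-factors, ZNF217, a CoREST-associated oncoprotein, was at 80.5 and 108 CPM in native lamina against 37.0 and 39.0 in the nucleus, and ZNF532, which partners ZMYND8, was at 36.1 and 31.5 against 17.9 and 13.9. These 2 were called, at 1.31 ± 0.28 and 1.09 ± 0.29 (edgeR adjusted p = 0.0209 and 0.0431), and the median of the 12 co-factors was 0.75. In the co-repressor pathway, CHD3 and UHRF1 were higher.

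The members lower in native lamina were led by ZNF680, at 4.26 and 6.19 CPM against 30.8 and 19.1 in the nucleus, a log2 fold change of -2.26 ± 0.42 (edgeR adjusted p = 0.0136). ZNF519 and ZNF785 followed at -2.21 ± 0.32 and -2.13 ± 0.59 (edgeR adjusted p = 0.00522 and 0.0472). Of the 183 chromosome 19 ZNF genes, 1 was higher and 28 were lower. The balance among members depends on scaling: total counts, which moved the median of all genes by 0.28, gave 24 higher and 4 lower, and upper quartiles, which moved it by -0.15, gave 9 and 15. No member's call was kept in all 4 fits that left out 1 of the compared libraries: without nuclear replicate 1 or 2 there were 0 calls, without native lamina replicate 1 they were 3 higher and 1 lower and without replicate 2 they were 1 and 1. Leaving out either PFA library, which belongs to neither group, gave 26 and 26.

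Against the cytosol, native lamina RNA was higher for 25 members and lower for 2, 11.8% and 0.948% against 6.99% and 6.77% of all genes, with a median of 0.35 against 0.10. ZNF750, ZNF767P and ZNF519 led, at 3.37 ± 1.04, 2.03 ± 0.34 and 1.95 ± 0.36 (edgeR adjusted p = 0.0465, 0.00608 and 0.00792). ZNF767P was at 36.2 and 25.3 CPM in native lamina, beside 42.3 and 28.3 in the nucleus and 7.09 and 8.04 in the cytosol. ZNF76 was higher too, with 28.9 and 32.4 CPM against 12.8 and 11.6, at 1.32 ± 0.29 (edgeR adjusted p = 0.0139). The 2 lower members were ZNF330, a nucleolar protein gene, at 27.4 and 28.0 CPM against 57.4 and 58.8, and ZNF385A at 17.6 and 20.3 against 36.5 and 39.1. The higher count fell to 2 and 0 without cytosolic replicates 1 and 2, to 10 and 5 without native lamina replicates 1 and 2 and to 16 without nuclear replicate 1, and it reached 41 and 43 without PFA lamina replicates 1 and 2; the 2 lower calls were lost when any of the nuclear, cytosolic or native lamina libraries was left out. The native comparisons share the native libraries with each other, and the nuclear and cytosolic comparisons share those fractions with the tests between them.

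**Figure D5:**
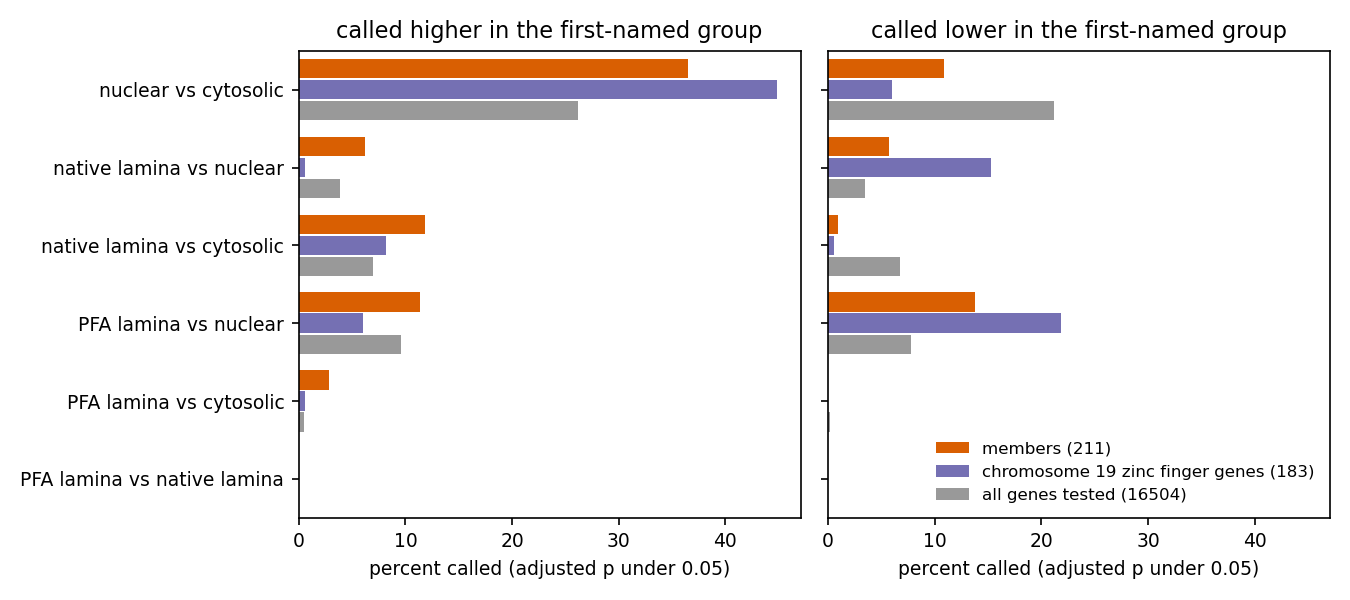
Percent of the 211 members, of 183 ZNF genes of chromosome 19 and of all 16504 genes tested that were called higher (left) or lower (right) in the first-named group of each comparison, at an edgeR adjusted p under 0.05. Members exceed all genes among the nuclear-high (36.5% against 26.1%), and chromosome 19 genes exceed both among those lower in lamina RNA than in the nucleus.

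After PFA fixation, 24 members were higher near the lamina than in the nuclear fraction and 29 were lower, 11.4% and 13.7% against 9.63% and 7.81% of all genes, with medians of -0.06 and -0.04. ZNF593 was at 34.2 and 21.3 CPM in PFA lamina and 4.51 and 6.53 in the nucleus, a log2 fold change of 2.34 ± 0.43 (edgeR adjusted p = 0.00754). ZNF467 was at 19.8 and 21.3 CPM, at 2.26 ± 0.44 (edgeR adjusted p = 0.00914), and ZNF768 at 2.18 ± 0.30 (edgeR adjusted p = 0.00476). ZNF385A and ZNF598, from the RNA and ribosome group, were also higher, at 1.70 ± 0.31 and 1.12 ± 0.28, and ZNF638 and ZNF326 were lower, at -0.88 ± 0.26 and -1.16 ± 0.31. Of the SCAN-domain genes, ZNF213 was higher and ZNF397 and ZNF500 were lower. Of the higher members named here, ZNF593, ZNF768, ZNF385A, ZNF598 and ZNF213 were also lower in the nucleus than in the cytosol. None of these was called higher in PFA lamina than in the cytosol.

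Among the lower members, ZNF519, ZNF750 and ZNF785 stood first, at -3.07 ± 0.35, -2.67 ± 0.85 and -2.20 ± 0.63 (edgeR adjusted p = 0.00129, 0.0458 and 0.0313). The PFA replicates of ZNF785 were 2.22 and 13.2 CPM and those of ZNF750 0.370 and 5.89, wide apart, while those of ZNF519 were close. Total counts gave 26 higher and 14 lower, and upper quartiles 20 and 35. Without nuclear replicate 1, 0 members were higher and 1 lower, without nuclear replicate 2 the counts were 8 and 7, and without PFA lamina replicate 1 the lower count was 6; a fit of the 4 compared libraries alone gave 12 and 8. ZNF519 was the call kept whichever of the 4 was left out. The sum of MALAT1 and NEAT1 differed between the 2 PFA libraries, as given above, and its part in these results was not tested.

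Against the cytosol, PFA lamina RNA was higher for 6 members and lower for 0, 2.84% and 0% against 0.527% and 0.145% of all genes. At an unadjusted p under 0.05 the edgeR counts were 46 and 6, against 12.9% and 8.61% of all genes, and DESeq2 called 15 and 1, against 3.7% and 3.01%. The 6 were ZNF767P, ZNF34, ZNF594, ZNF23, ZNF76 and ZNF398. ZNF767P was at 35.5 and 40.8 CPM in PFA lamina against 7.09 and 8.04 in the cytosol, at 2.33 ± 0.34 (edgeR adjusted p = 0.0312). ZNF23 was at 29.2 and 24.3 against 7.35 and 8.25, and ZNF76 at 30.3 and 36.4 against 12.8 and 11.6. Without cytosolic replicate 1 or 2 or nuclear replicate 1, 0 members were higher, without nuclear replicate 2 it was 1, without PFA lamina replicates 1 and 2 it was 18 and 3. ZNF398 was at 97.4 and 104 CPM in PFA lamina, 98.5 and 62.5 in native lamina, 83.3 and 72.3 in the nucleus and 36.0 and 38.9 in the cytosol, the same cytosolic libraries serving each comparison.

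Members above both fractions were sought in each lamina preparation. By edgeR's adjusted p, 0 members were above both in native lamina and 0 in PFA lamina, where 0.0424% and 0.0485% of all genes were. At an unadjusted p under 0.05 there were 6 in native lamina, ZNF608, ZNF467, ZNF462, ZNF423, ZNF516 and ZNF217 (0.830% of all genes), and 11 in PFA lamina (1.13% of all genes), among them ZNF467 and ZNF423. DESeq2 placed 0 members above both fractions in native lamina and, in PFA lamina, ZNF423, a partner of early B-cell factors, as it did 0.134% of all genes. ZNF423 was at 15.3 and 18.0 CPM there, 14.8 and 8.99 in native lamina, 6.23 and 3.61 in the nucleus and 4.68 and 5.29 in the cytosol, so that its 4 lamina values lay above its 4 fraction values. ZNF467 did the same, its lamina values running from 12.2 to 21.3 CPM and its fraction values from 3.27 to 9.94. Below both fractions there were 0 members by adjusted p in either preparation, where 0.164% and 0.00606% of all genes were, and at an unadjusted p under 0.05 only ZNF124 in native lamina and 0 in PFA lamina, against 1.16% and 0.654%; DESeq2 placed 0 below both in either.

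Between the 2 lamina preparations no member was called: edgeR gave 0 higher and 0 lower in PFA against native lamina, as for all genes (0%). At an unadjusted p under 0.05, 7 members were higher and 14 lower, against 5.44% and 5.6% of all genes, and DESeq2, which gave an adjusted p for 91 members, called 0 and 3, against 1.09% and 2.75% of the genes it gave one for. The exonic length of a member and its PFA over native log2 fold change had a Spearman correlation of -0.40, against -0.33 over all genes tested, a description across genes that share the same libraries. The 71 shortest members, up to 3402 bases, had a median of 0.22 and the 71 longest, from 5080 bases, a median of -0.24. In PFA lamina against the nucleus, 12 of the shortest were higher and 6 lower, and 1 of the longest was higher and 14 were lower. Of all genes, 9.63% were higher and 7.81% lower in that comparison. Its Spearman correlation between exonic length and log2 fold change was -0.21 over members and -0.06 over all genes. The part of transcript length in these counts was not tested.

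By chromosome, calls are read against the 26.1% of all genes that were higher in the nucleus and the 21.2% that were lower. On chromosome 7, 14 of 29 members were higher (48.3%) and 2 lower (6.90%), and on chromosome 16, 8 of 28 were higher (28.6%) and 6 lower (21.4%), near the shares of all genes. On chromosome 3, 7 of 14 members were higher and 0 lower, and on chromosome 9, 6 of 10 were higher and 0 lower. Other chromosomes did not lean to the nucleus. On chromosome 10, 4 of 13 members were higher and 4 lower, with a median log2 fold change of -0.01. On chromosome 15, 1 of 7 was higher and 2 lower, with a median of -0.66. With 1 nuclear or cytosolic library left out, the higher counts ran from 8 to 12 on chromosome 7, from 4 to 5 on chromosome 16, from 5 to 6 on chromosome 3 and from 4 to 6 on chromosome 9. No test was made of the differences between chromosomes.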

How the data were processed

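RNA was measured in 8 libraries of HEK293FT, 2 in each of 4 groups. The authors counted reads per gene symbol with featureCounts 1.5.2 on hg19 and the RefFlat annotation, ignoring strand and counting a read for every gene it overlaps, per the file headers; the deposited values are raw counts. The recorded command does not ask for reads mapped to several places, so members with near-identical copies are uncertain. The submitters' processing notes name TopHat2 2.1.1 and Bowtie2 2.3.2. The header of cytosolic replicate 1 carries the output name of nuclear replicate 1 but names its own input, and it was used as labelled. Counts were fitted with edgeR 4.0.16 in R 4.3.3 (TMM scaling, filterByExpr, 1 quasi-likelihood fit of 8 libraries by group, Benjamini-Hochberg over 16504 genes, threshold 0.05), tested on simulated data. Each SE is the absolute log2 fold change divided by the square root of the quasi-likelihood F statistic. The spread behind each SE was estimated from all 8 libraries. Alternatives were DESeq2 1.42.0, other scalings and filters, a replicate block, the 4 compared libraries alone and each library left out. The members and gene lists were chosen with earlier results of these data known. Text names, per comparison, the 3 most higher and lower called members, the 8 most abundant per kilobase, list members that were called, members called against both fractions and those at the minimum; others were singled out after their values were seen. Protein domain classes were not computed, since protein sequences were not used here. Domain lists of HCT116 on a 100 kb grid were intersected with whole genes. K562 samples were not used because their labels conflict. Some genes of the lists are not reported here by name.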

Additional observations from a re-analysis of the deposited data

How the results depend on the processing

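All 3577 recomputed values of called genes kept their direction, and 709 of them no longer passed the threshold. These refits reuse the same libraries for genes already called, so a kept direction is little support. Values lost numbered 4 with DESeq2 size factors, 20 with upper quartiles and 41 with total counts. Losses were most frequent when a nuclear library was left out. With 1 library left out, counts of members higher and lower ran from 43 to 82 and from 14 to 32 for the nucleus against the cytosol, from 0 to 26 and from 0 to 26 for native lamina against the nucleus, from 0 to 43 and from 0 to 7 for native lamina against the cytosol, from 0 to 30 and from 1 to 39 for PFA lamina against the nucleus, from 0 to 18 and from 0 to 4 for PFA lamina against the cytosol, and from 0 to 0 and from 0 to 4 for PFA against native lamina. The median for PFA against native lamina then ran from -0.077 to 0.047, changing sign without native lamina replicate 1 (-0.029) and PFA lamina replicate 1 (-0.077). Total counts turned it to -0.072, and turned the medians for native lamina and PFA lamina against the nucleus to 0.226 and 0.094; members with a summed count of at least 500 gave 0.038 and 0.0060, and the 4 compared libraries alone 0.015 for native lamina. For native lamina against the nucleus, total counts gave 24 higher and 4 lower, no filter 21 and 21, at least 10 counts in every library 19 lower, the 4 libraries alone 32 and 25, members that share no exon base 8 and 7 and members whose span no other symbol shares 6 and 7. For native lamina against the cytosol, total counts gave 38 and 0, the 4 libraries alone 38 and 6, upper quartiles 1 lower and unshared spans 1 lower. For PFA lamina against the nucleus, total counts gave 14 lower, the 4 libraries alone 12 and 8 and unshared spans 14 higher. For PFA lamina against the cytosol, the higher count was 3 with DESeq2 size factors, 21 without a filter, 12 with at least 10 counts in every library, 15 with DESeq2 and 2 with the 4 libraries alone, and the lower count 1 without a filter and 1 with DESeq2. For PFA against native lamina, 2 members were lower without a filter and 3 with DESeq2. Unshared spans, an alternative chosen after seeing the data, gave 14 lower between the fractions, and the G2 list alone put 15 members in domains. The cause of these changes was not tested, beyond fewer members or libraries.

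The labels tie no replicate number to a shared culture or day, so the numbers were not taken to pair the samples; deviations of same-numbered libraries correlated at -0.067 to 0.321 across groups, above 0.1 for 3 of 6 pairs of groups. With the replicate number as a block, members higher and lower were 82 and 26 between the fractions, 18 and 16 and 30 and 5 for native lamina against nucleus and cytosol, 29 and 32 and 13 and 0 for PFA lamina, and 0 and 0 between the preparations. Depth limits the smallest PFA library most, where 3 counts are 1.29 CPM of its total. Shares of library counts carry counting error only, and the 95% Wilson interval of the members' share in that library was 0.920% to 0.945%.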
